A study of Saccharomyces cerevisiae with 2 samples.

Results

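The genes described here are the secretory and vacuolar sorting genes of budding yeast, examined in chromatin folding data from a swr1Δ strain. They were chosen by name: every scored gene called SEC, VPS, BET, TRS, COG or EXO followed by digits only, leaving out VPS71, VPS72 and VPS75, which encode chromatin factors, and EXO1, which encodes a nuclease. This rule gave 92 genes of the 4738 that had a score, of which 36 were SEC genes, 35 VPS, 8 TRS, 6 COG, 4 BET and 3 EXO. They lie on 15 chromosomes, and no measured value entered the naming rule. One of the 92, EXO5, fits the name pattern but encodes a DNA exonuclease and has no known place in secretion, so values that it moves are also given without it. Genes that the authors list under another name, such as PEP3 for VPS18, were not members. They are treated as partner genes, except PEP8 (VPS26) and LOA1 (VPS66), which were not in the partner list.

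The secretory pathway carries newly made proteins from the endoplasmic reticulum (ER) through the Golgi to the plasma membrane, and the vacuolar sorting pathway diverts some of them through endosomes to the vacuole, the yeast counterpart of the lysosome. Each step uses the same cast of parts: a coat that buds a vesicle, a Rab GTPase that marks it, a tethering complex that catches it at the target membrane, and SNARE proteins that fuse it. The SEC genes were named for mutants that block secretion and the VPS genes for mutants that missort vacuolar proteins, so the members include housekeeping genes, many of them essential, scattered over the genome.

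The cells were W303 yeast lacking SWR1, which encodes the catalytic subunit of SWR-C, the remodeler that exchanges H2A for the variant histone H2A.Z. Mid-log cultures in YPD at 30 °C were crosslinked for 15 min in 3% formaldehyde, and Micro-C, a form of Hi-C in which micrococcal nuclease cuts chromatin between nucleosomes, was used to record contacts. The labels name 2 swr1Δ replicates, the paper's methods 3, and the 2 library columns held 8804603 and 7314801 read pairs within 10000 bp. Of these, only 297131 and 373548 spanned more than 500 bp. WT cells were not analysed here, so every value below describes swr1Δ alone and no effect of losing SWR1 can be read from it.

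The measurement is the authors' compaction score, which is 1 value per gene for swr1Δ. The formula, the log base, any correction for gene length, the way in which libraries were combined and the meaning of the sign are not given in the sources used here. Scores are therefore called low or high, not open or compact. With 1 value per gene there was no replicate spread, no error and no test for any gene, and the depth behind each gene is unknown, so a difference between 2 genes cannot be set against measurement error.

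As a whole, the members were centred where the genome was and were less spread out. Their scores ran from -1.25 for SEC53 to 1.17 for BET2, with a median of -0.0178 and quartiles of -0.301 and 0.205. All 4738 genes had a median of -0.0394 and quartiles of -0.342 and 0.248. A score below 0 was found for 47 of the 92 members (51.1%), beside 53.8% of all scored genes. The lowest 10% of all scores lay at or under -0.729 and held 5 members (5.43%, beside 10% of all genes), and the highest 10% lay at or above 0.546 and held another 5 (5.43%, again beside 10%). The middle of the distribution was fuller than in the genome, since 61 members (66.3%) lay between the quartiles of all genes, which hold 50.0% of all genes by construction. The SD was 0.388 over the members and 0.555 over all genes. Without EXO5 the median was -0.0091, the SD was 0.380 and 46 of 91 members were below 0. The lowest 10% of all scores then held 4 members (4.40%) and the highest 10% held 5 (5.49%).

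**Figure D1:**
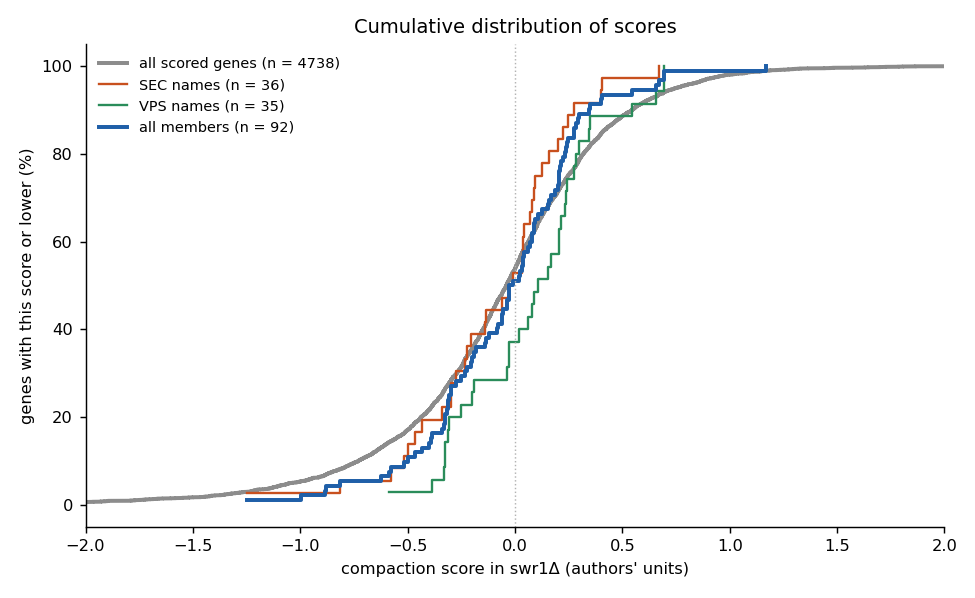
Cumulative share of genes (y axis, percent) with a given compaction score or lower (x axis, authors' units, shown from -2 to 2) for all 4738 scored genes, the 92 members, the 36 SEC genes and the 35 VPS genes. The curve of the members is steeper than that of all genes in the middle and flatter in both tails, where 5.43% of members stand beside 10% of all genes, and the VPS curve lies to the right of the SEC curve over most of the range.

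The 36 SEC genes had a median of -0.0196 with 19 below 0 (52.8%), and the 35 VPS genes had a median of 0.108 with 13 below 0 (37.1%). The difference between these name families was not tested, and their scores overlapped widely. Of the genes listed under a VPS name, none was in the lowest 10% of all scores and VPS52 was lowest at -0.586, but PEP3, which is also known as VPS18, was at -0.764 and within the lowest 10%. Of the small families, 7 of 8 TRS genes and 5 of 6 COG genes were below 0, beside 53.8% of all scored genes. These are counts of genes under a naming rule, and the genes of a family include subunits of the same complexes.

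The lowest score belonged to SEC53, which encodes the phosphomannomutase that supplies GDP-mannose for glycosylation. At -1.25 it was lower than all but 2.98% of scored genes. Next came BET3 (-0.998) and TRS20 (-0.884), both subunits of the core of the TRAPP tethering complex, then EXO5 (-0.879) and SEC10 (-0.815), a subunit of the exocyst. These 5 were the only members in the lowest 10% of all scores, and the next member, TRS33 at -0.623, is another core TRAPP subunit. The remaining scored genes of the TRAPP core, TRS31 (-0.184) and TRS23 (-0.0567), lay between the quartiles of all genes.

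The highest score was that of BET2, at 1.17 above 98.9% of all scored genes. It encodes the beta subunit of the enzyme that prenylates Rab GTPases, giving them the lipid anchor they need to sit on membranes. It stood well apart from the next 4, VPS33 (0.696), VPS13 (0.693), SEC16 (0.669) and VPS21 (0.659), which lay close together. VPS33 encodes the Sec1/Munc18 subunit shared by the HOPS and CORVET tethers, VPS13 a lipid transfer protein of membrane contact sites, SEC16 the scaffold of ER exit sites and VPS21 the Rab GTPase of the endosome. VPS36, at 0.544, fell just short of the highest 10%.

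Nearest to the median of all genes were VPS20 (-0.039), TRS65 (-0.0372), SEC26 (-0.03), VPS4 (-0.0276) and VPS16 (-0.0265). They encode an ESCRT-III subunit, a TRAPPII subunit, the beta subunit of COPI, the ATPase that takes ESCRT-III apart and a shared subunit of HOPS and CORVET, so the centre of the distribution held genes of Golgi and of endosomal traffic alike.

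When the members were placed in gene order, in the R64 gene table that corresponds to the sacCer3 build in the submitters' processing notes, the extreme members differed in their surroundings. SEC53, a 765-bp gene at chrVI:43628-44392, was flanked by FMP32 at 0.515 and OTU1 at -0.547. BET3 (-0.998) lay between GPT2 at 0.449 and YKR070W at 0.310. Neither gene had a neighbour near its own score, although OTU1 was also below the lower quartile of all genes. BET3 lay between 2 genes above the upper quartile.

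SEC10 and TRS20 were different. SEC10 (-0.815) had UPS2 at -1.33 and PUS5 at -0.475 beside it, and APS1, beyond UPS2, was at -0.693. TRS20 (-0.884) had SRB6 at -0.911 on 1 side and MTC4 at 0.0507 on the other. EXO5 (-0.879) had TOS1 at -0.205 and ARL1, an Arf-like GTPase gene of the Golgi, at 0.727. SEC10 was therefore part of a run of low genes, TRS20 had 1 low neighbour, and EXO5 had none as low as itself.

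Among the highest members, BET2 at chrXVI:891101-892078 lay between DPB2 at 0.335 and PRP4 at 0.433, both above the upper quartile of all genes but far below BET2. VPS13 (0.693) was flanked by SDH2 at 1.04 and UBI4 at 0.736, and SEC16 (0.669) by ELP3 at 0.446 and BRO1, itself an ESCRT-associated gene, at 0.328. These 3 genes sat among high neighbours. VPS33 (0.696) had CST9 at 0.114 and AFG2 at 0.105, and VPS21 (0.659) had YVC1 at -0.0029 and PTC5 at -0.550. The last 2 therefore had no nearest neighbour above the upper quartile. BET2 stood out from its neighbours as well. The score minus the mean of both nearest scored genes was 0.783 for BET2, 0.587 for VPS33, 0.935 for VPS21, 0.281 for SEC16 and -0.194 for VPS13.

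**Figure D2:**
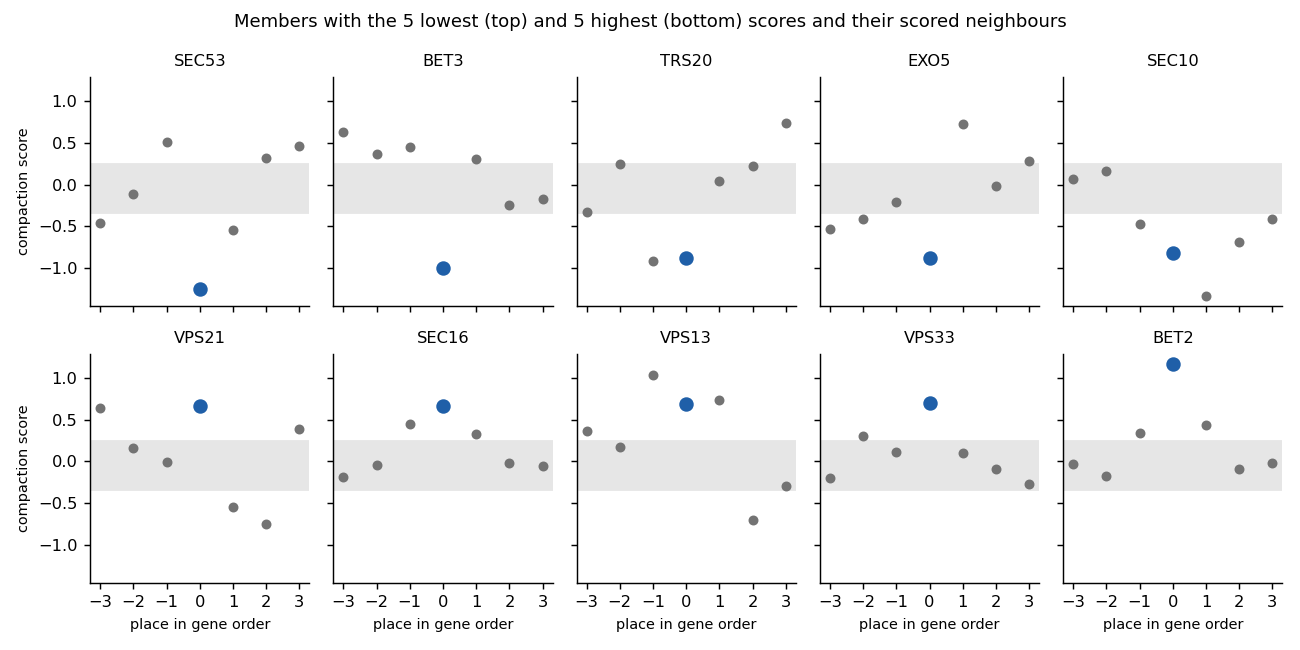
Compaction score (y axis, authors' units) of the 5 lowest members (top row) and 5 highest members (bottom row), drawn as large blue points at place 0, and of the 3 nearest scored genes on each side (small grey points, x axis in steps of gene order). The grey band spans the quartiles of all scored genes, -0.342 to 0.248. For SEC10, VPS13, SEC16 and BET2, both nearest neighbours lie on the same side of the band as the member. For SEC53 only OTU1 does, and for BET3 and VPS21 neither nearest neighbour does.

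The genes of ER translocation, through which secretory proteins enter the pathway, covered a wide range. SEC61, the pore of the translocon, was at 0.0431. The post-translational partners of the pore were spread on both sides of it, with SEC63, a J-domain protein that recruits the chaperone BiP, at -0.577, SEC66 at -0.0602, SEC72 at 0.0779 and SEC62 at 0.402. SEC65, a subunit of the signal recognition particle, was at -0.342, and SEC11, the catalytic subunit of signal peptidase, at -0.276. Genes of the translocon thus differed by up to 0.979, and the median of the 7 was -0.0602, which became 0.00605 once the scores were adjusted for gene length.

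The COPII coat, which buds vesicles from the ER, had 6 members, most of them above 0. SEC23 and SEC24, which form the inner layer and bind cargo, were at 0.0355 and 0.245. SEC13 and SEC31, the outer cage, were close together at 0.224 and 0.200. SEC16 was at 0.669, and SEC12, the exchange factor that activates the GTPase Sar1, was lowest at -0.0091. All 6 scores exceeded the median of all genes, and the median of the group was 0.212. Of 8 genes of the coat and its cargo receptors under other names, 4 were below 0, beside 53.8% of all scored genes. Their median was -0.0437. Among them were SAR1, the GTPase on which the coat assembles, at -0.205 and the SEC24 relative SFB3 at -0.124. The highest was SFB2, at 0.151.

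The COPI coat, which returns proteins from the Golgi to the ER, had 3 of 4 members below 0, beside 53.8% of all scored genes. SEC21, its gamma subunit, was at -0.431, SEC27 (beta-prime) at -0.135, SEC26 (beta) at -0.03 and SEC28 (epsilon) at 0.407. With 4 scored members and a median of -0.0825, COPI overlapped COPII, since SEC28 was higher than every COPII member except SEC16. Of the COPI genes under other names, COP1 was at -0.151, RET2 at -0.108 and RET3 at 0.673, which was above SEC16 too.

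Tethering complexes catch vesicles before fusion. Of the 26 members in TRAPP, COG, exocyst and GARP, 19 were below 0, beside 53.8% of all scored genes, and their median was -0.161. With the HOPS and CORVET tethers and SEC39 of the Dsl1 tether included, 23 of 32 were below 0 and the median was -0.161. The 10 genes of both coats had 4 below 0 and a median of 0.118. These sets were put together after the values were seen, and neither received a test.

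In TRAPP, which acts at the Golgi and in autophagy, 8 of 9 scored members were below 0, beside 53.8% of all scored genes. The scored core subunits shared by all forms of the complex were BET3 at -0.998, TRS20 at -0.884, TRS33 at -0.623, TRS31 at -0.184 and TRS23 at -0.0567. BET5, another core subunit, was not scored. The TRAPPII members TRS130 (-0.0778), TRS120 (-0.062) and TRS65 (-0.0372) lay in a narrow interval next to the median of all genes. The TRAPPIII subunit TRS85 was the only TRAPP member above 0, at 0.212. Among the partner genes, the tether gene TCA17 was also above 0, at 0.0353. Length differed with this split, because the core genes measured 528 to 852 bp and the TRAPPII genes 1683 to 3870 bp; its part in the result was not tested. After subtraction of the median of the 200 genes closest in length, the values of BET3, TRS20 and TRS33 were -0.868, -0.695 and -0.597, and those of TRS31 and TRS23 were 0.0054 and 0.0439.

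In COG, a tether of retrograde traffic within the Golgi, 5 of 6 scored subunits lay between -0.399 and -0.123. COG1 (-0.389), COG2 (-0.319) and COG4 (-0.123) belong to lobe A, and COG6 (-0.311), COG8 (-0.399) and COG5 (0.205) to lobe B. Only COG5 was above 0, whereas 53.8% of all scored genes were below 0, and the lobes overlapped. No COG gene was in the lowest or the highest 10% of all scores, and the median was -0.315, with scores that ranged over 0.603 from COG8 to COG5. COG3 and COG7 were not scored.

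The exocyst, which tethers secretory vesicles to the plasma membrane, was scored for all 8 subunits. SEC10 was at -0.815 and SEC15, which binds the Rab Sec4 on the vesicle, at -0.515. SEC8 (-0.297), SEC6 (-0.232) and SEC5 (-0.139) were intermediate. The remaining 3 were above 0: EXO84 (0.0245), SEC3 (0.0952) and EXO70 (0.189), of which SEC3 and EXO70 encode the subunits that contact the plasma membrane. The median was -0.186. GARP, the tether of endosome-to-Golgi traffic, held VPS52 at -0.586 beside VPS53 at 0.0609 and VPS54 at 0.0864, so its 3 scored subunits were not alike.

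**Figure D3:**
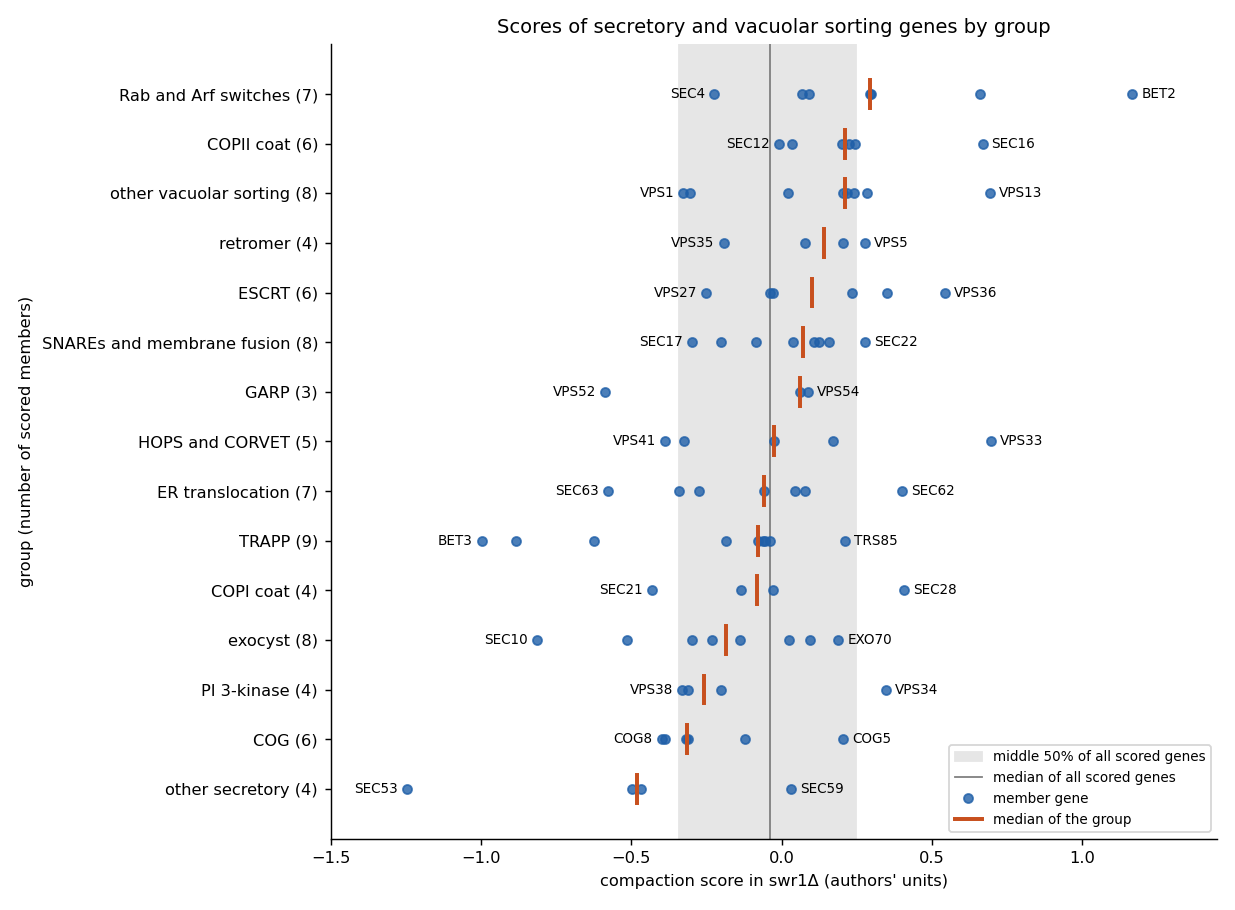
Compaction score of each member (x axis, authors' units), 1 blue point per gene, in the 15 groups with 3 or more scored members (y axis, number of members in brackets), ordered by the group median (orange bar). The grey band and line give the quartiles and median of all scored genes; the 6 COPII members lie to the right of the line, 5 of 6 COG genes lie to its left, and TRAPP reaches far into the low tail.

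SNAREs and the proteins that handle them had the smallest SD, 0.195, of the 15 groups with 3 or more scored members. The 4 SNARE genes that bear member names were BET1 at -0.0842, SEC9 at 0.0377, SEC20 at 0.124 and SEC22 at 0.277. SEC17 (alpha-SNAP, -0.299) and SEC18 (NSF, 0.159) disassemble spent SNARE complexes together. The Sec1/Munc18 genes SEC1 and VPS45 were at -0.203 and 0.108, while VPS33, the third gene of this family among the members, was at 0.696. All 8 genes of the group lay between -0.299 and 0.277, and the median was 0.0726. The 14 scored SNARE partners under other names ran from -0.382 for PEP12 to 0.973 for GOS1, so the narrow spread holds only for the members.

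The genes that control Rab and Arf GTPases had the highest group median, 0.295, with 6 of 7 above 0, whereas 53.8% of all scored genes were below 0. BET4, the alpha subunit of the Rab prenylation enzyme, was at 0.295, far from its partner BET2 at 1.17. The endosomal Rab gene VPS21 was at 0.659 and its exchange factor VPS9 at 0.299. For exocytosis the order was the reverse, since the Rab gene SEC4 was at -0.224, the only member of the group below 0, and its exchange factor SEC2 was at 0.0897. SEC7, the Arf exchange factor of the Golgi, was at 0.0686.

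The HOPS and CORVET tethers of the vacuole and endosome share a core. The core subunits VPS33 and VPS16 were at 0.696 and -0.0265, the HOPS subunit VPS41 at -0.387, and the CORVET subunits VPS8 and VPS3 at -0.326 and 0.169. Further subunits are listed under other names: PEP3 (VPS18) at -0.764, PEP5 (VPS11) at 0.0232 and VAM6 (VPS39) at 0.148. With these the complexes ran from -0.764 to 0.696 over 8 genes, which reaches from below VPS52 to VPS33, the second-highest member.

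The phosphatidylinositol 3-kinase marks endosomal membranes and also serves autophagy. Its catalytic subunit VPS34 was at 0.346, whereas the regulatory subunits VPS15 (-0.201), VPS30 (-0.313) and VPS38 (-0.331) were all below the median of all genes. VPS38 overlaps its neighbour DCR2 (-0.453) by 35 bp.

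The ESCRT machinery sorts ubiquitinated proteins into the lumen of endosomes. VPS27 of ESCRT-0 was at -0.250. The ESCRT-II genes VPS25 and VPS36 were at 0.350 and 0.544, VPS20 and VPS60 of the ESCRT-III family at -0.039 and 0.233, and the ATPase VPS4 at -0.0276. SNF7 (VPS32), the main filament subunit of ESCRT-III, was at 1.02 and thus higher than every member but BET2, whereas SNF8 (VPS22) of ESCRT-II was at -0.0611 and SRN2 (VPS37) of ESCRT-I at -0.266. The median was 0.103 for the 6 members and -0.0276 for the 9 genes. With 5 of its 14 listed subunits not scored, ESCRT is described only in part.

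Retromer recycles sorting receptors from endosomes to the Golgi. VPS35, its central cargo-selective subunit, was at -0.193 and VPS29 at 0.206, and the sorting nexins VPS17 and VPS5 were at 0.0777 and 0.277. PEP8 (VPS26), the remaining core subunit, was lower than these 4 at -0.509. Its main cargo, the receptor of carboxypeptidase Y encoded by PEP1 (VPS10), was at 0.0811.

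Of the other vacuolar sorting genes, VPS1, a dynamin-like GTPase, and VPS74, which retains glycosyltransferases in the Golgi, were at -0.327 and -0.305. The remaining 6 were above 0, whereas 53.8% of all scored genes were below 0. VPS68 and VPS55, whose products form a complex on late endosomes, were at 0.02 and 0.203. VPS73 (0.216), VPS70 (0.239) and VPS62 (0.283) lay close together, and VPS13 was highest. The median of these 8 was 0.209. LOA1 (VPS66), listed under another name, was at 0.480.

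The other secretory genes were mostly low. Besides SEC53, they were SEC14, the phosphatidylinositol transfer protein of the Golgi, at -0.498, SEC39, a subunit of the Dsl1 tether at the ER, at -0.466, and SEC59, the dolichol kinase of glycosylation, at 0.0314. SEC53 and SEC59 both serve glycosylation and differed by 1.28.

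VPS63 and VPS69 are dubious reading frames. VPS63 covers 327 bp, of which 320 bp (97.9%) lie within YPT6, a Rab gene of the Golgi. YPT6 itself is 648 bp long, so part of it lies outside VPS63. The score of VPS63 was 0.156 and that of YPT6 was -1.28, a difference of 1.43 between overlapping genes. VPS69 was at 0.242 and was not in the gene table used for lengths.

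Scores were more spread out among short genes. The 91 members with a known length had a median of 1734 bp and all 4585 genes with a known length 1347 bp. Among genes of at most 1000 bp, the SD was 0.507 for 27 members and 0.703 for 1450 genes of the whole table. From 1000 to 2000 bp it was 0.341 for 26 members and 0.475 for all genes, from 2000 to 3000 bp 0.318 for 27 members and 0.371 for all genes, and above 3000 bp 0.343 for 11 members and 0.409 for all genes. The SD of the members was thus smaller in each of the 4 classes, with no test of that difference. The largest members, VPS13 (9435 bp), SEC16 (6588 bp) and SEC7 (6030 bp), were at 0.693, 0.669 and 0.0686. Over the members, Spearman's rho of score and length was -0.0151 (n = 91), and over all genes it was 0.0831 (n = 4585). All points come from 1 pooled score, and genes are not independent replicates.

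**Figure D4:**
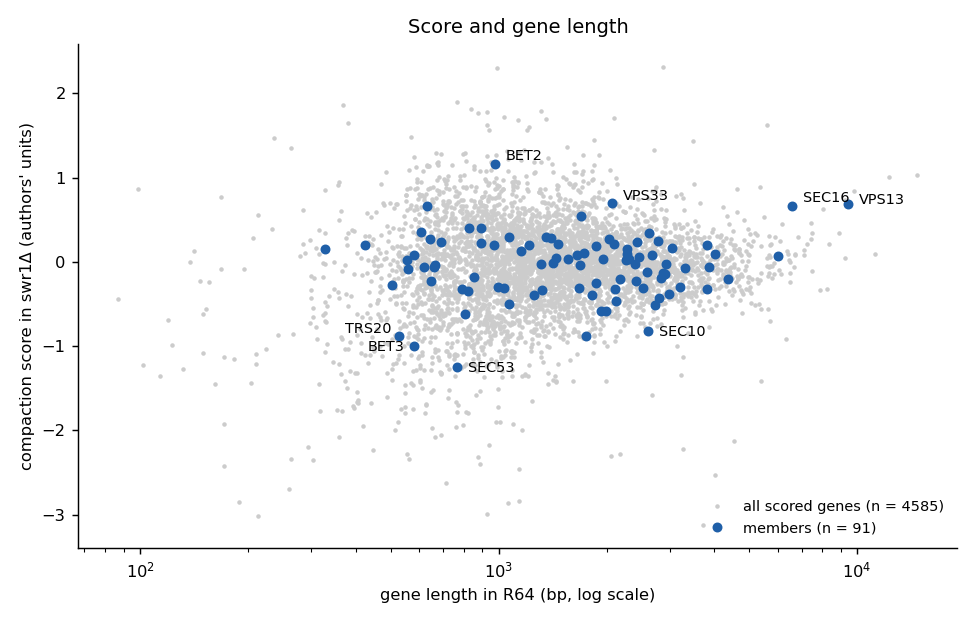
Compaction score (y axis, authors' units) against gene length in the R64 gene table (x axis, bp, log scale) for 91 members (blue) and all 4585 scored genes with a known length (grey, members included). The scatter widens toward short genes; SEC53, BET3 and TRS20 are short, and SEC10, VPS33, SEC16 and VPS13 are not.

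Neighbouring genes shared little of a member's score. Spearman's rho between a member and the mean of the nearest scored gene on each side was 0.138 (n = 91), next to 0.129 over all genes (n = 4553). A member was below its neighbour mean in 43 of 91 cases, beside 2246 of 4553 over all scored genes, so the members were much like the genome here. TRS31 (-0.184) and VPS3 (0.169) sat in the lowest surroundings, with neighbour means of -1.10 and -1.01. TRS31 borders RPL27B, a ribosomal protein gene, at -1.93. SEC62 and SEC28 were high (0.402 and 0.407) beside low neighbours (-0.670 and -0.540), and SEC63 was low (-0.577) beside OSW1 at 1.82.

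A few members lie near each other. VPS52 (-0.586) and VPS60 (0.233) had no scored gene between them and differed by 0.819, and SEC1 (-0.203) and SEC5 (-0.139), with only TRM82 (0.274) between them, differed by 0.0635. VPS4 (-0.0276), BET2 (1.17) and SEC23 (0.0355) follow each other on chromosome XVI with 2 and 3 scored genes in between. Over the 9 pairs of members with at most 3 scored genes between them, the difference ran from 0.0457 (VPS3 and SEC20) to 1.19 (VPS4 and BET2).

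Promoters and gene ends were compared by arrangement. The 41 members with a divergent promoter had a median of 0.0355, with 46.3% below 0, and the 44 that follow a gene on the same strand had a median of -0.0381, with 56.8% below 0. Over all genes these shares were 50.6% and 56.9%, in the same order. Gene ends gave the opposite order, since 56.0% of the 50 members with a convergent neighbour downstream and 48.6% of the 35 with a tandem neighbour were below 0, beside 51.6% and 56.6% of all genes. None of these differences was tested.

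**Figure D5:**
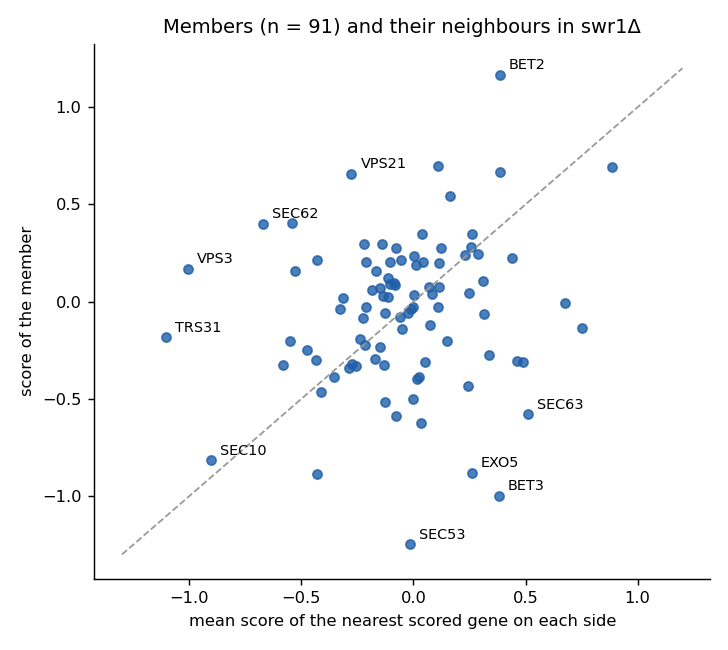
Score of each of 91 members (y axis, authors' units) against the mean score of the nearest scored gene on each side (x axis, same units), 1 point per gene; the dashed line marks equal values. Points lie widely on both sides of the line, with SEC10 close to it and BET3, SEC53 and BET2 far from it.

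The wider pathway was examined through 100 partner genes that act in the same steps under other names. A score was found for 79 of them, with a median of -0.108 and 45 below 0 (57.0%, beside 53.8% of all scored genes), and 5 lay in each 10% tail, as among the members. YPT6 (-1.28), SRP72 of the signal recognition particle (-0.791) and HSE1 of ESCRT-0 (-0.766) were lowest. SNF7 (1.02), the Golgi SNARE gene GOS1 (0.973) and the Rab gene YPT10 (0.805) were highest. Rab genes and their regulators lay on both ends, with a median of -0.168 over 13 genes, beside 0.295 for the 7 members of the Rab and Arf group. The 14 SNARE partners had a median of 0.169 and 5 below 0.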

How the data were processed

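Micro-C was performed by the authors on swr1Δ W303 cells. The compaction score is 1 deposited value per gene, computed by the authors; how it was calculated is not given in the sources used here. The deposited counts of read pairs per distance, in 4 orientations and without normalization, were used only for depth, and their columns are not tied to replicate numbers. The submitters' processing notes name CASAVA 1.8.2, Bowtie2 and sacCer3. There were 0 per-sample columns left unused.

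Names were matched to the rule. Lengths, gene order, overlaps and other names came from the R64 gene table, which follows the reference strain and not W303 and held 4585 of 4738 genes (96.8%). Length adjustment subtracted the median score of the 200 genes closest in length. With 1 value per gene no test was run, and values are medians, shares and rank correlations without p-values. The functions were checked on simulated data. The members, groups and partner lists were chosen with earlier results of these data known. The text names the 5 lowest and 5 highest members with their neighbours, all members of each group, those nearest the median of all genes and the 3 lowest and 3 highest partners. Other genes (members in unusual surroundings or close together, overlapping genes, subunits under other names, SAR1, SFB2, SFB3, TCA17 and PEP12) were chosen after their values were seen. A count of promoter motifs was planned and not run, since no sequences were used here. Calculations used pandas 2.3.3, numpy 2.4.6 and scipy 1.17.1 under Python 3.11.15, and plots matplotlib 3.10.9.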

Additional observations from a re-analysis of the deposited data

How the results depend on the processing

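Of 82 alternative values, 74 stayed within the interval or tolerance set around the reported one: the order-statistic interval of a median, the 95% Wilson interval of a share, 10% for the SD and 0.1 for a correlation. Of the 82, 34 were for group medians. For every group except TRAPP the interval was the full range of its members. The mean of such a group could not fall outside it, so its staying within says nothing about stability. Several settings of the member summaries kept nearly the same genes, from 88 to 95 beside 92 as reported. Those could hardly leave the intervals, so their staying within says little. The intervals also treat genes as independent draws, which they are not, so the count of 74 is no measure of robustness. For the VPS genes alone the median was 0.108, the share below 0 was 37.1%, that in the lowest 10% of scores was 0 and the SD was 0.320. Members of at least 1000 bp had an SD of 0.332. Subtracting the median of genes close in length moved the TRAPP median to -0.0324 and the GARP median to 0.0879. Pearson's r of score and log2 length was 0.0795, opposite in sign to Spearman's rho, and both are near 0. Within the intervals, 5 medians still took the other sign: that of all members with length adjustment (0.0325), that of ER translocation with it (0.00605), the means of HOPS and CORVET (0.0251) and of GARP (-0.146), and ESCRT with subunits under other names (-0.0276). Leaving out EXO5 and adding those subunits were chosen after seeing the data. No paired analysis was possible because the score is 1 pooled value per gene with no replicate number; leaving out a library was not possible for the same reason. The promoter motifs were not run. The depth behind each score is unknown, so the size of a difference between genes that measurement error alone could give is unknown too.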

Other observations

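Among the partner genes, groups that act in the same step did not always lie together. In COPI and Arf traffic, 7 of 9 partners were below 0, beside 53.8% of all scored genes, with ARF2 at -0.743, COP1, the alpha subunit of the coat, at -0.151 and ARF1 at -0.124, while RET3, the zeta subunit, was at 0.673. Of the duplicated GTPase genes, YPT31 was at 0.536 and YPT32 at -0.111, and YPT52 and YPT53, paralogs of VPS21 (0.659), were at -0.472 and -0.282. The plasma membrane SNARE genes SSO1 and SSO2 were at 0.116 and 0.728. In the signal recognition particle, SRP54, which binds the signal sequence, was at 0.399, whereas SRP68 (-0.339), SRP21 (-0.235), SRP72 (-0.791) and SEC65 (-0.342) were all below 0. The duplicated genes named here were chosen after their values were seen.

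Of the names that the rule leaves out, VPS71, a subunit of SWR-C itself, was at 0.104, VPS75, a histone chaperone, at 0.176 and EXO1 at -0.337. All 3 lay within the quartiles of all scored genes. Adding them gave a median of -0.0091 over 95 genes.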
